A study of Sus scrofa with 2 samples.

Results

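Transcripts of TGF beta, BMP and activin signaling were examined in endometrium of pregnant Yorkshire pigs at day 18 of gestation (YK18). The 10 genes TGFB1, TGFB2, TGFB3, BMP2, TGFBR1, TGFBR2, BMPR2, SMAD2, SMAD4 and FST were chosen by symbol, and the RPKM of all rows of a gene were summed. RPKM is the number of reads per kilobase of transcript and per 1000000 reads of the library. Of these genes, 8 had rows in the table, out of 11063 genes with a matched symbol. No row was matched to TGFB2, a ligand, or to TGFBR2, the type II receptor that binds TGF beta, so neither is described. Endometrium is the inner lining of the uterus. The 2 libraries came from 2 pregnant pigs of the same breed and day, with no treatment beyond artificial insemination, and are called pig 1 (replicate 1) and pig 2 (replicate 2). Per the study's methods the pigs were of similar age and from a single herd, and that each library is a separate pig is inferred from them. They form 1 group, so every difference given is between 2 animals and has no replicate check.

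Ligands of this family bind a type I and a type II receptor kinase together, and the type I receptor phosphorylates SMAD proteins that enter the nucleus with SMAD4. TGF beta and activin act mainly through SMAD2 and SMAD3, and BMPs through SMAD1, SMAD5 and SMAD9. Follistatin, the product of FST, binds activins outside the cell and keeps them from their receptors. In the pregnant uterus the family is known for roles in implantation, stromal differentiation, matrix deposition and immune tolerance.

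Both libraries were of similar size, with 7466979 reads in pig 1 and 7023108 reads in pig 2. These totals and the reads behind each RPKM value were worked out from the steps in which low RPKM values rise. Reads are the smallest whole numbers that match both libraries, so true reads can be a whole multiple of them and intervals from them can be too wide. The intervals cover counting error only, because each pig has 1 library. They treat reads as independent, and reads from PCR are not independent molecules, so the intervals can also be too narrow. Of the epithelial markers, EPCAM was at 5106 and 5128 RPKM in pigs 1 and 2 and CDH1 at 4834 and 3961 RPKM. Of the stromal markers, COL3A1 was at 67098 and 42857 RPKM and DCN at 211 and 273 RPKM. Of 6 genes with rows that every cell uses, 5 were above 1 RPKM in both libraries and EEF1A1 was listed at 0 in both. KRT8, which endometrial epithelium uses, was also listed at 0 in both libraries. A gene at 0 is therefore described only as listed at 0.

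The receptor transcripts held most of the signal of these genes. BMPR2 and TGFBR1 together made up 68.3% of the summed RPKM in pig 1 and 69.9% in pig 2. The 2 SMADs made up 12.2% and 12.6%, and the 3 ligands made up 7.38% and 10.4%. FST made up 12.1% in pig 1 and 7.07% in pig 2. The share of receptors, 69.1 ± 1.15% (SD, n = 2), rested mainly on BMPR2.

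BMPR2, the type II receptor for BMPs, had the highest level. It was at 1224 RPKM in pig 1 and 1009 RPKM in pig 2, from 2202 and 1708 reads. Its mean of 1116 ± 152 RPKM (SD, n = 2) lay above 93.4% of the 6985 genes above 0 in both libraries. TGFBR1, the type I receptor for TGF beta, was at 227 and 283 RPKM, from 1103 and 1296 reads. BMPR2 was 5.39 times as high as TGFBR1 in pig 1 and 3.56 times as high in pig 2, and the values of the 2 genes did not overlap. All reads of TGFBR1 lay in row XM_005660270.1, while its row NM_001038639.1 was listed at 0 in both libraries.

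SMAD4, the shared partner of the receptor-activated SMADs, was at 259 RPKM in pig 1 and 231 RPKM in pig 2. These values are sums of 2 rows. Row XM_005654429.1 was at 185 and 160 RPKM, from 996 and 809 reads, and row NM_214072.1 was at 74.6 and 71.9 RPKM, from 54 and 49 reads. SMAD2, which carries TGF beta and activin signals, had 3 rows, and 2 of them were listed at 0 in both libraries. The remaining row, XM_005659449.1, was listed at 0 in pig 1 and was at 0.721 RPKM in pig 2, from 2 reads. Nothing is read from this low value of SMAD2, since EEF1A1, which every cell uses, was also listed at 0.

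Of the ligands TGFB1, TGFB3 and BMP2, TGFB1 stood far above TGFB3 and BMP2. It was at 150.1 RPKM in pig 1 and 178 RPKM in pig 2, from 315 and 351 reads. TGFB3 was at 5.57 and 9.57 RPKM, from 34 and 55 reads, all in row XM_005666355.1. Row NM_214198.1 of TGFB3 was listed at 0 in both libraries. TGFB1 was 27.0 times as high as TGFB3 in pig 1 and 18.6 times as high in pig 2. INHBB, which encodes an activin subunit and is described below, was at 102 and 215 RPKM, above TGFB1 in pig 2. BMP2, a BMP known for its part in stromal differentiation, was at 0.922 RPKM in pig 1 and 5.15 RPKM in pig 2, from 4 and 21 reads. The mean of BMP2 was 3.03 ± 2.99 RPKM (SD, n = 2), so its SD was nearly as large as its mean. BMP2 was thus low in both pigs, while BMPR2 was the highest of these genes in both.

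FST was at 257 RPKM in pig 1 and 131 RPKM in pig 2, from 328 and 157 reads. Its mean was 194 ± 89.2 RPKM (SD, n = 2). In pig 1 its level was close to that of SMAD4, and in pig 2 it was below TGFB1.

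**Figure D1:**
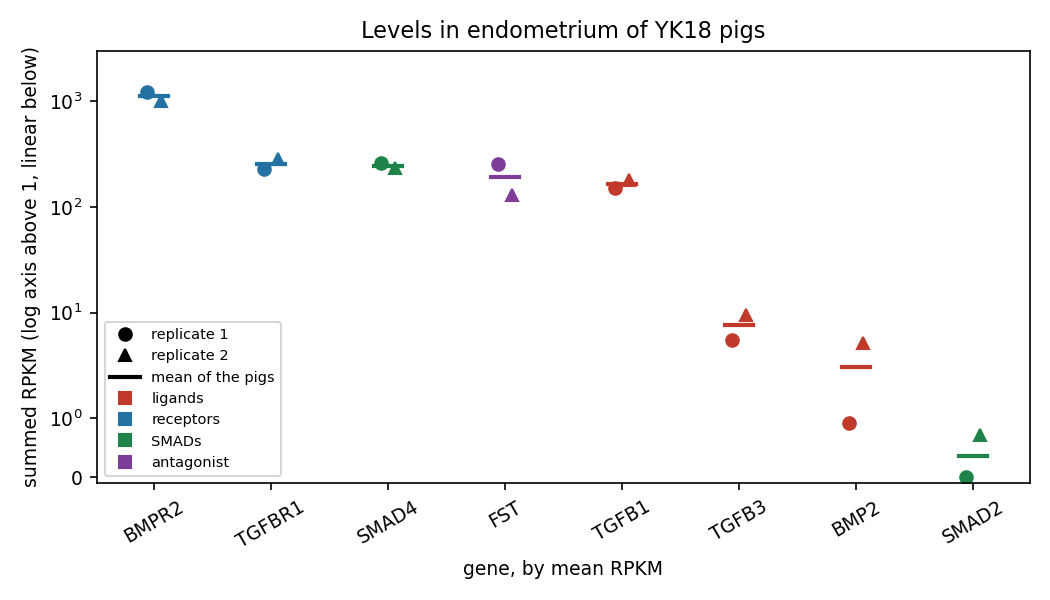
Summed RPKM of the 8 genes with rows, on an axis that is logarithmic above 1 and linear below, ordered by mean and coloured by role (circles, pig 1, replicate 1; triangles, pig 2, replicate 2; bars, mean of the 2 pigs). BMPR2 is highest in both pigs, TGFBR1, SMAD4, FST and TGFB1 lie between 131 and 283 RPKM, and TGFB3, BMP2 and SMAD2 lie below 10 RPKM.

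By mean RPKM the order was BMPR2, TGFBR1, SMAD4, FST, TGFB1, TGFB3, BMP2 and SMAD2. Of the 7 neighbours in this order, 4 did not overlap between the pigs: BMPR2 and TGFBR1, TGFB1 and TGFB3, TGFB3 and BMP2, and BMP2 and SMAD2. The last of these rests on 4 reads of BMP2 in pig 1 and 2 reads of SMAD2 in pig 2, whose counting intervals overlap, so nothing is read from it. Counting intervals also overlapped for TGFB3 in pig 1, 3.15 to 6.36 reads per 1000000, and BMP2 in pig 2, 1.85 to 4.57. The gap between TGFB3 and BMP2 across the pigs is therefore within counting error. TGFBR1 and SMAD4, SMAD4 and FST, and FST and TGFB1 overlapped, so none of these neighbours differed beyond the spread of 2 pigs. Within each pig SMAD4 was above FST, at 259 against 257 RPKM in pig 1 and 231 against 131 RPKM in pig 2. The other overlapping neighbours changed order between the pigs. TGFBR1 and SMAD4 were both above TGFB1 in each pig. The order also depends on the lengths by which reads were divided. The smallest lengths that gave whole reads ran from 97 to 818 nt over the 9 rows above 0. Where the true length is a multiple of this, the reads are too low by the same factor, so levels in reads are uncertain between genes. Over all rows, the recovered reads made up 90.2% of the library total worked out for pig 1 and 90.3% for pig 2. Which of the 2 scales compares genes better was not tested. In reads per 1000000 reads, with no division by length, 6 of the 7 neighbours did not overlap. BMPR2 was then 1.62 times TGFBR1 by their means, against 4.37 times in RPKM. SMAD4, at a mean of 131 reads per 1000000, was below TGFBR1 at 166 in both pigs. FST, at 33.1, had a mean below that of TGFB1 at 46.1.

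The levels were then compared between the pigs, on the scale log2(RPKM + 1) and over the 6474 genes with a mean of at least 1 RPKM, among them 7 of the 10 genes. BMP2 was the only gene of the 7 with a difference of at least 2-fold, at a log2 ratio of pig 2 to pig 1 of 1.68. Over all genes compared, 7.48% were at least 2-fold higher in pig 2 and 3.17% at least 2-fold lower, so 1 of 7 is near this background. FST lay just inside the 2-fold limit, at a log2 ratio of -0.97. All 3 ligands were higher in pig 2, with log2 ratios of 0.24 for TGFB1, 0.69 for TGFB3 and 1.68 for BMP2. Of all genes compared, 58.0% were higher in pig 2, and the median log2 ratio was 0.07, against 0.24 for the 7 genes. TGFBR1 was also higher in pig 2, with 0.32, while BMPR2 was lower, with -0.28, and SMAD4 with -0.16.

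Counting error differed in size between these genes, and its intervals come from the recovered reads. In reads per library total, FST in pig 2 was 0.509 times its level in pig 1 (95% exact binomial interval 0.418 to 0.617). BMPR2 was at 0.825 times (0.774 to 0.879) and TGFBR1 at 1.25 times (1.15 to 1.35). The ratio of BMP2, 5.58 times, had an interval from 1.88 to 22.4, because it rests on 25 reads. The interval of TGFB1 ran from 1.01 to 1.38 and that of TGFB3 from 1.10 to 2.72. SMAD4 was at 0.869 times (0.793 to 0.952). For 4 of the 7 genes the interval lay above 1 and for 3 below 1, against 18.6% and 12.4% of all genes compared. The intervals narrow with depth, and the 7 genes had a median of 666 reads over both libraries, against 197 for all genes compared. An interval compares 2 libraries and says nothing about the spread between pigs.

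**Figure D2:**
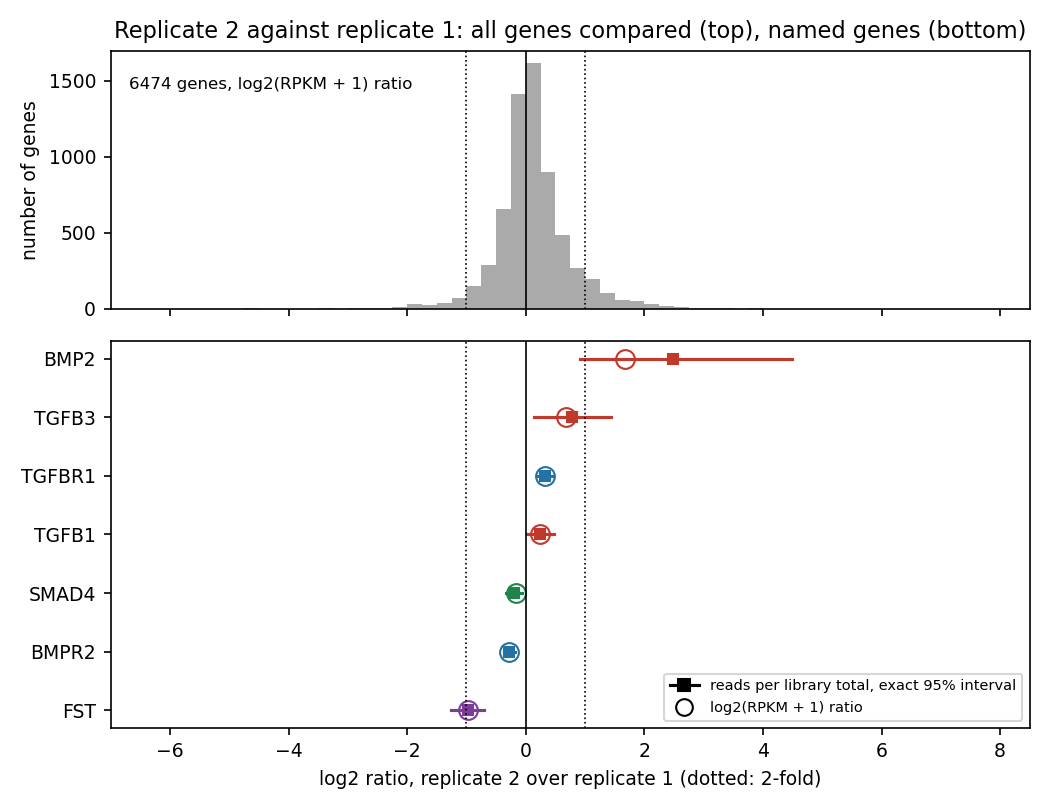
Top, number of genes by log2 ratio of pig 2 to pig 1 on the log2(RPKM + 1) scale, over 6474 genes. Bottom, the 7 genes with a mean of at least 1 RPKM, with open circles for the log2(RPKM + 1) ratio and squares with lines for the log2 ratio of reads per library total and its exact 95% interval. BMP2 lies beyond the dotted 2-fold line and FST next to it on the other side.

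FST was then set beside the activin subunits, whose products follistatin binds. INHBA and INHBB encode the beta subunits that form activins. INHBA was at 65.3 RPKM in pig 1 and 101 RPKM in pig 2, from 272 and 395 reads. INHBB was at 102 and 215 RPKM, from 430 and 851 reads. Both subunits were thus higher in the pig in which FST was lower. FST was 1.53 times the sum of INHBA and INHBB in pig 1 and 0.414 times that sum in pig 2. In the smallest whole reads, with no division by length, FST was below the sum of both subunits in each pig. Its place above them in pig 1 thus differed between the scales. True reads of a gene can be a multiple of the smallest whole reads, so the order in reads is uncertain too. INHA, which encodes the alpha subunit of inhibins, was listed at 0 in both libraries. The comparison with FST was chosen after these values were seen, and 2 pigs allow no test of it.

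**Figure D3:**
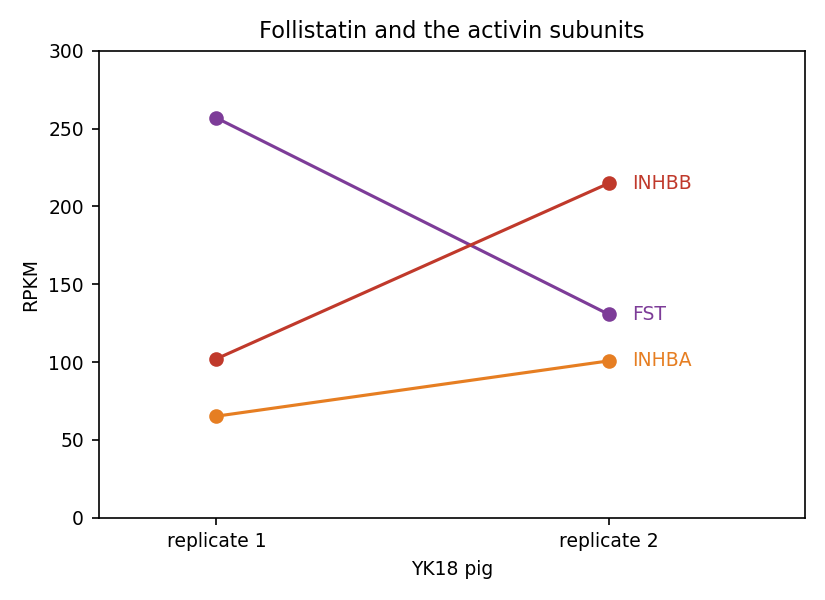
RPKM of FST, INHBB and INHBA in each YK18 pig, with lines joining the values of a gene. FST is the highest of the 3 in pig 1, at 257 RPKM, and INHBB is the highest in pig 2, at 215 RPKM.

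A wider list of 100 genes of the pathway was examined by role, of which 70 had rows and 49 were above 1 RPKM in both pigs. At a mean of at least 1 RPKM were 51 genes, of which 29 were higher in pig 2 and 22 lower, with a median log2 ratio of 0.23. At least 2-fold differences were found in 6 genes toward pig 2 and in 2 toward pig 1. Over all genes compared, 58.0% were higher in pig 2, 7.48% at least 2-fold higher and 3.17% at least 2-fold lower, so the count of higher genes on the list is near this background.

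Of 26 other ligands, 21 had rows and 12 were above 1 RPKM in both pigs. INHBB had the highest mean and was the only other ligand at least 2-fold higher in pig 2, at a log2 ratio of 1.07. GDF5, a growth factor of the BMP type, had the largest difference and was at 6.25 RPKM in pig 1 and 0.570 RPKM in pig 2, from 35 and 3 reads. BMP6 was at 30.8 and 42.4 RPKM, above BMP2 in both pigs.

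The other receptors were all below BMPR2 in level. ACVR1B, the type I receptor for activin, was at 380 RPKM in pig 1 and 327 RPKM in pig 2. The type I receptors for BMPs were at 267 and 246 RPKM for BMPR1A and at 167 and 211 RPKM for BMPR1B. The type II receptors for activin were at 333 and 260.2 RPKM for ACVR2A and at 158 and 139 RPKM for ACVR2B. BMPR2 was 3.67 and 3.88 times as high as ACVR2A. AMHR2, the receptor for anti-Müllerian hormone, had 4 and 1 reads and ACVR1C had 0 and 2 reads, so their log2 ratios of -1.38 and 2.00 rest on very few reads. ACVR1 was listed at 0 in both libraries, and ACVRL1 had no matched row. TGFBR3, also called betaglycan, a coreceptor that presents TGF beta and inhibin, was at 549 and 466 RPKM. RGMA, a coreceptor for BMPs, had the largest difference among the coreceptors, at 8.17 and 19.2 RPKM.

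Among the other SMADs, SMAD3, which carries TGF beta and activin signals, was lower in pig 2, and the inhibitory SMADs were higher. SMAD3 was at 324 RPKM in pig 1 and 271 RPKM in pig 2, and SMAD1, which carries BMP signals, at 168 and 163 RPKM. SMAD6, which inhibits BMP signals, was at 31.9 and 55.9 RPKM, from 176 and 290 reads. SMAD7, which inhibits TGF beta signals too, was at 39.9 and 68.8 RPKM, from 198 and 320 reads. The log2 ratios were -0.26 for SMAD3 and -0.04 for SMAD1, against 0.79 for SMAD6 and 0.77 for SMAD7. For SMAD1 the exact interval of the read ratio, 0.826 to 1.14, included 1. SMAD9 was listed at 0 in both libraries, and SMAD5 had no matched row. BAMBI, a pseudoreceptor that dampens signaling, was at 41.3 and 63.1 RPKM.

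Of 13 genes fixed as targets of the pathway, 10 had rows and 9 a mean of at least 1 RPKM. In 7 of these 9, the exact interval of the read ratio lay above 1, and in 1 it lay below 1, against 18.6% and 12.4% of all genes compared. All 9 but TAGLN had more reads than the median of 197 of all genes compared, which narrows their intervals. The median log2 ratio of the 9 genes was 0.57, against 0.07 for all genes compared. ID1, an inhibitor of differentiation induced by BMPs, was at 253 RPKM in pig 1 and 507 RPKM in pig 2, from 943 and 1777 reads. The log2 ratios of ID2, ID3 and ID4 were 0.42, 0.57 and 0.93. MSX1, a uterine homeobox gene, was at 74.0 and 102 RPKM. JUNB, a subunit of AP-1 that many stimuli induce, had the largest ratio and was at 32.9 and 85.9 RPKM. CTGF, a matrix-associated TGF beta target, had the highest mean and went the other way, at 1557 RPKM in pig 1 and 1088 RPKM in pig 2. TAGLN was at 4.06 and 3.78 RPKM, and SMTN was listed at 0 in both libraries.

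**Figure D4:**
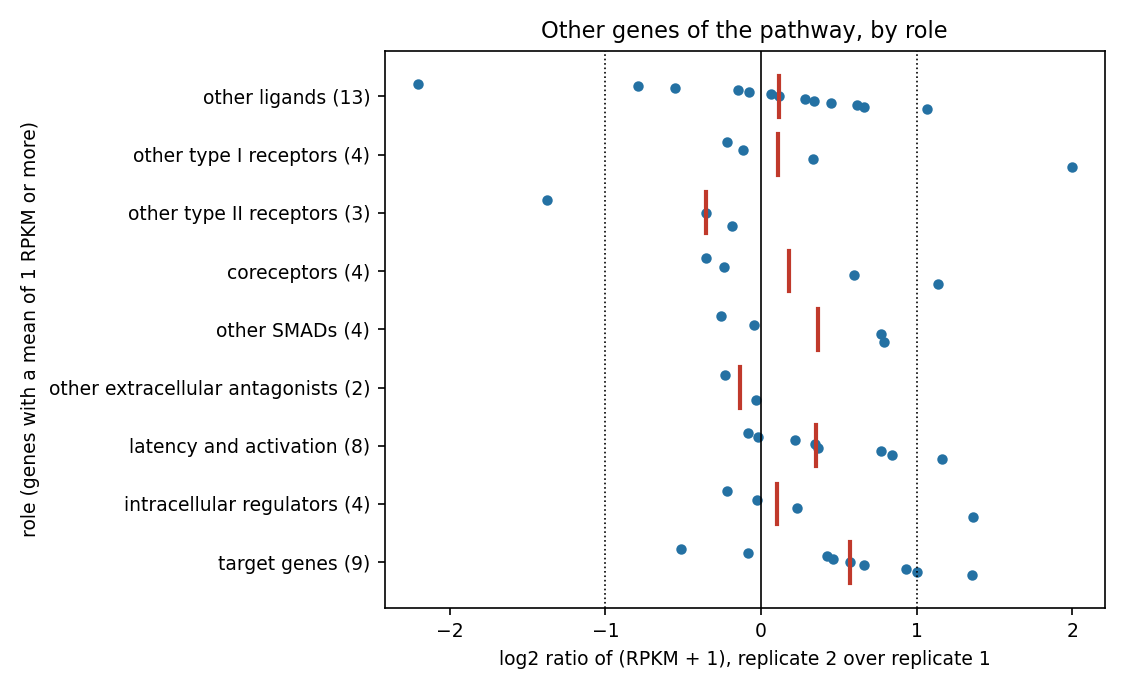
Log2 ratio of pig 2 to pig 1 on the log2(RPKM + 1) scale for 51 other pathway genes by role, each averaging 1 RPKM or more (points, genes; bars, median; dotted lines, 2-fold; in brackets, number of genes). The target genes have a median of 0.57, with 7 of 9 to the right of 0, against 58.0% of all genes compared. The 3 other type II receptors lie to the left of 0. Of these, only ACVR2A has an exact interval of the read ratio below 1.

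TGF beta is secreted in a latent form that integrins and other proteins release. Of 12 genes of latency and activation, 10 had rows. ITGAV, the integrin alpha V subunit, had the highest mean, at 8750 RPKM in pig 1 and 8275 RPKM in pig 2, from 8559 and 7613 reads. Its partner ITGB6 was at 76.8 and 89.4 RPKM, and ITGB8 was listed at 0 in both libraries. LTBP3, which tethers latent TGF beta to the matrix, was at 802 and 791 RPKM. THBS1, thrombospondin 1, was at 845 and 1517 RPKM, and NRROS, which holds latent TGF beta on myeloid cells, at 10.9 and 25.8 RPKM. Of the other extracellular antagonists, TWSG1, a modulator of BMPs, was highest, at 360 and 306 RPKM, CHRD was at 91.4 and 89.4 RPKM, and the other 5 with rows were listed at 0. Among the intracellular regulators, STRAP, which binds the TGF beta receptors, was highest, at 1069 and 920 RPKM. PMEPA1, which sequesters receptor-activated SMADs, had the largest difference, at 3.89 and 11.6 RPKM from 18 and 49 reads.

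Markers of cell types also differed between the pigs. For comparison, 58.0% of all genes compared were higher in pig 2, 7.48% at least 2-fold higher and 3.17% at least 2-fold lower. HBB, from erythrocytes, was at 3549 RPKM in pig 1 and 8431 RPKM in pig 2. In its list of 6 markers of platelets and erythrocytes, 5 had rows, 3 of these were at 0 in both libraries, and the sums were 3608 and 8502 RPKM. The 5 leukocyte markers with rows summed to 613 and 994 RPKM, and NCR1 was at 0 in both pigs. Of the 4 with a mean of at least 1 RPKM, 3 were higher in pig 2. For 2 of the 4 the exact interval of the read ratio lay above 1. Stroma markers summed to 69452 and 44378 RPKM over 5 genes, nearly all of it COL3A1. Of the 4 stroma markers with a mean of at least 1 RPKM, COL3A1 and LUM were lower in pig 2, and DCN and VIM were higher. Epithelium markers summed to 11970 and 10845 RPKM over 6 genes, although 3 of the 5 above 0, EPCAM, KRT19 and CLDN4, were higher in pig 2. Endothelium markers summed to 6408 and 6074 RPKM over 3 genes, of which VWF was higher in pig 2, and smooth muscle markers to 115 and 105 RPKM over 5, with ACTA2, CNN1 and MYLK at 0 in both pigs. The 6 skeletal muscle markers summed to 422 RPKM in pig 1 and 9.55 RPKM in pig 2, and 5 of them were at least 2-fold lower in pig 2, while ACTA1 had 1 and 0 reads. The trophectoderm list summed to 702 and 103 RPKM over 6 genes, mostly IFNG at 682 and 89.1 RPKM, with GATA3 and KRT8 at 0 in both pigs. The part of these differences in those of FST, BMP2, the activin subunits and the target genes was not tested. In bulk tissue, fewer cells of a type and less RNA per cell cannot be told apart.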

How the data were processed

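Endometrium of 2 YK18 pigs was analysed. Breed and day follow the labels, which name the samples endometrium 1 and 2. That each library is from a separate pig was inferred from the study's methods, which assign 2 pigs to each breed and day. Per the methods, uterine horns were flushed before sampling. The authors counted reads with HTSeq 0.6.1 and deposited RPKM per transcript. Aligner and genome build are not given in the sources used here. Library totals were found from the steps of RPKM values, and for each row the smallest length up to 20000 nt at which both libraries gave whole reads was taken. Such reads were found for 100% of 25584 rows above 0, which does not by itself show that they are the true reads. The recovery was also run on simulated data, whose lengths and totals were not those of these libraries. Rows were matched to symbols through RefSeq accessions of Sscrofa11.1 with the version ignored, which matched 16072 of 38222 mRNA rows. Of the 13 rows of the genes described, 6 have another version number than the annotation. Older symbols were matched for 2 genes of the lists. No coordinates were used.

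Ratios are on the log2(RPKM + 1) scale over genes with a mean of at least 1 RPKM. Exact binomial intervals at 95% were computed on reads. Since 2 pigs of 1 group allow no test between conditions, no p-value was computed. Python 3.11.15, pandas 2.3.3, numpy 2.4.6, scipy 1.17.1 and matplotlib 3.10.9 were used.

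The genes and lists were chosen with earlier results of these data known. Besides the 10 genes, the rule named, in each role, the gene with the highest mean and the gene with the largest log2 ratio, and all other receptors and SMADs. INHBA, INHA, BMP6, BAMBI, ID1 to ID4, MSX1, TAGLN, SMTN, LTBP3, THBS1, ITGB6, ITGB8 and CHRD were named after their values were seen, as were the markers EPCAM, CDH1, COL3A1, KRT8, EEF1A1, HBB, ACTA1, ACTA2, CNN1, MYLK, NCR1, GATA3, DCN, LUM, VIM, KRT19, CLDN4, VWF and IFNG. The values of 1 gene counted among the targets are not reported here. With 2 libraries no gene can be named for a like pattern. Alternatives were the highest row only, matching versions only, rescaling to a sum of 1000000, recovered reads, other pseudocounts and filters, a median shift, and each replicate left out.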

Additional observations from a re-analysis of the deposited data

How the results depend on the processing

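No paired analysis was possible because there was only 1 group, with 2 libraries. With matching versions only, TGFB1 had no row, and the shares of summed RPKM were 0.241% for ligands, 80.8% for receptors, 5.35% for SMADs and 13.6% for FST. Of 49 pathway genes above 1 RPKM in both pigs, 27 were then left. The cause is the setting's construction, which drops rows. With the highest row only, the shares were 71.8% for receptors and 9.02% for SMADs. In recovered reads they were 66.6% for receptors, 20.1% for SMADs and 5.02% for FST. Without either replicate, the share of FST ran from 7.07% to 12.1%. The count of 1 gene at least 2-fold apart, BMP2, fell to 0 when genes averaging under 5 RPKM were left out and when each library was rescaled to a sum of 1000000, since BMP2 was then under the filter. It rose to 2, BMP2 and FST, with replicate 2 shifted by the median log2 ratio of all genes, and was 1 with the highest row only, matching versions, reads, other pseudocounts and no filter. The mean of BMP2 was 0.922 RPKM without replicate 2 and 5.15 RPKM without replicate 1. The 4 reads of BMP2 in replicate 1, the 2 reads of SMAD2 and a spread from 2 pigs limit these values.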

Other observations

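SMAD2, TGFB3 and TGFBR1 each had a row listed at 0 in both libraries beside other rows, and this was common for genes with several rows. Of the 8226 genes with 1 row, 21.1% were listed at 0 in both libraries. Of the 2837 genes with more than 1 row, 42.7% had every row at 0 and 87.5% had at least 1 row at 0. Of the 7846 rows of these genes, 70.7% were at 0 in both libraries. Of the 13 rows of the genes described here, 4 were at 0 in both libraries, and all 4 belong to genes with more than 1 row. The cause was not tested.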
